A study of Mus musculus with 10 samples.

Results

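The 9 genes described here encode 2 neurexins (Nrxn2 and Nrxn3), 3 neuroligins (Nlgn1, Nlgn2 and Nlgn3) and 4 leucine-rich repeat transmembrane proteins (Lrrtm1 to Lrrtm4). They were taken by gene symbol from the 55487 genes of a gene-level table, and their exon bins and introns were taken from the matching bin and intron tables. The samples were cerebral cortex of mice aged 18 days, with 5 animals per genotype. The tested genotype, Usp7 cKO; Trp53+/-, carried floxed Usp7 deleted by NEX-cre, a Cre driver of glutamatergic neurons, and the control genotype was Usp7 WT; Trp53+/-. Animals of both groups, called Usp7 cKO and Usp7 WT below, were therefore heterozygous for Trp53. Other cortical cells keep Usp7 in this model, and whole cortex was measured. The labels do not say whether the Usp7 WT animals carried the driver. If they did not, effects of the driver and of Usp7 loss cannot be told apart.

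Neurexins sit mainly on the presynaptic membrane, where they bind postsynaptic partners across the synaptic cleft and so help to organise both sides of the synapse. Neuroligins and LRRTMs are postsynaptic partners of neurexins. Neuroligin 1 is found mainly at excitatory synapses and neuroligin 2 mainly at inhibitory ones, neuroligin 3 occurs at both, and LRRTMs act at excitatory synapses. Each neurexin gene makes a long (alpha) form and a short (beta) form from separate promoters, and alternative exons such as splice site 4 (SS4) change which partners a neurexin binds. USP7 is an enzyme that removes ubiquitin from other proteins.

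Library totals ran from 42628526 to 51797145 bin counts and from 3388310 to 4367711 intron counts. Usp7 averaged 36.9 ± 3.96 TPM (a transcript level scaled by gene length and library) in Usp7 cKO libraries, against 53.9 ± 5.32 TPM in Usp7 WT libraries (SD, n = 5 each; log2 -0.54, limma adjusted p = 0.00131), with no overlap between the groups. Xist and Ddx3y went against the labelled sex in 2 libraries, Usp7 cKO replicate 1 and Usp7 WT replicate 2, and values with this pair left out are given where that changes a call. Xist was at 116, 96.5, 130.2, 0.223 and 111 TPM in the Usp7 cKO replicates, against 105, 0.0478, 0.053, 0.0408 and 129 TPM in the Usp7 WT replicates. Sex by Xist was thus not balanced between genotypes. The main fits used the labelled sex, and the permutation tests had no sex term. All 5 glutamatergic marker genes were lower in Usp7 cKO (summed level 2228 to 2700 TPM, against 3097 to 3452 TPM in Usp7 WT), as were all 5 microglial markers (129 to 151 TPM, against 190.1 to 226 TPM). Of the other marker lists, 1 of 6 GABAergic genes was lower, 1 of 5 astrocyte genes was higher, and no oligodendrocyte, oligodendrocyte precursor, endothelial or choroid plexus gene was called. No marker was at 0 in the table. In whole tissue, fewer cells of a type and less RNA per cell cannot be told apart, and the part of these markers in the results below was not tested. The Usp7 cKO libraries precede the Usp7 WT ones in the bin table's identifiers, so order and genotype cannot be told apart.

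Nrxn3 and Nlgn1 were the 2 genes of the 9 that differed in level, and both were lower in Usp7 cKO. Over all 27580 genes tested, 4.67% were called lower, 9.22% higher and 13.9% in either direction. The median log2 change over the 9 genes was -0.14, beside 0.06 over all genes tested. Nrxn2 and Nlgn2 had the only positive changes among the 9, and neither passed the test. Ordered by level in Usp7 cKO, the genes ran from Nlgn2 through Nrxn2, Nrxn3, Lrrtm1, Lrrtm3, Lrrtm2, Nlgn3 and Nlgn1 to Lrrtm4, and Usp7 WT had the same order. Lrrtm2 and Nlgn3 did not differ beyond their spread in either genotype, and in Usp7 WT the ranges of Lrrtm2 and Nlgn1 also met.

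**Figure D1:**
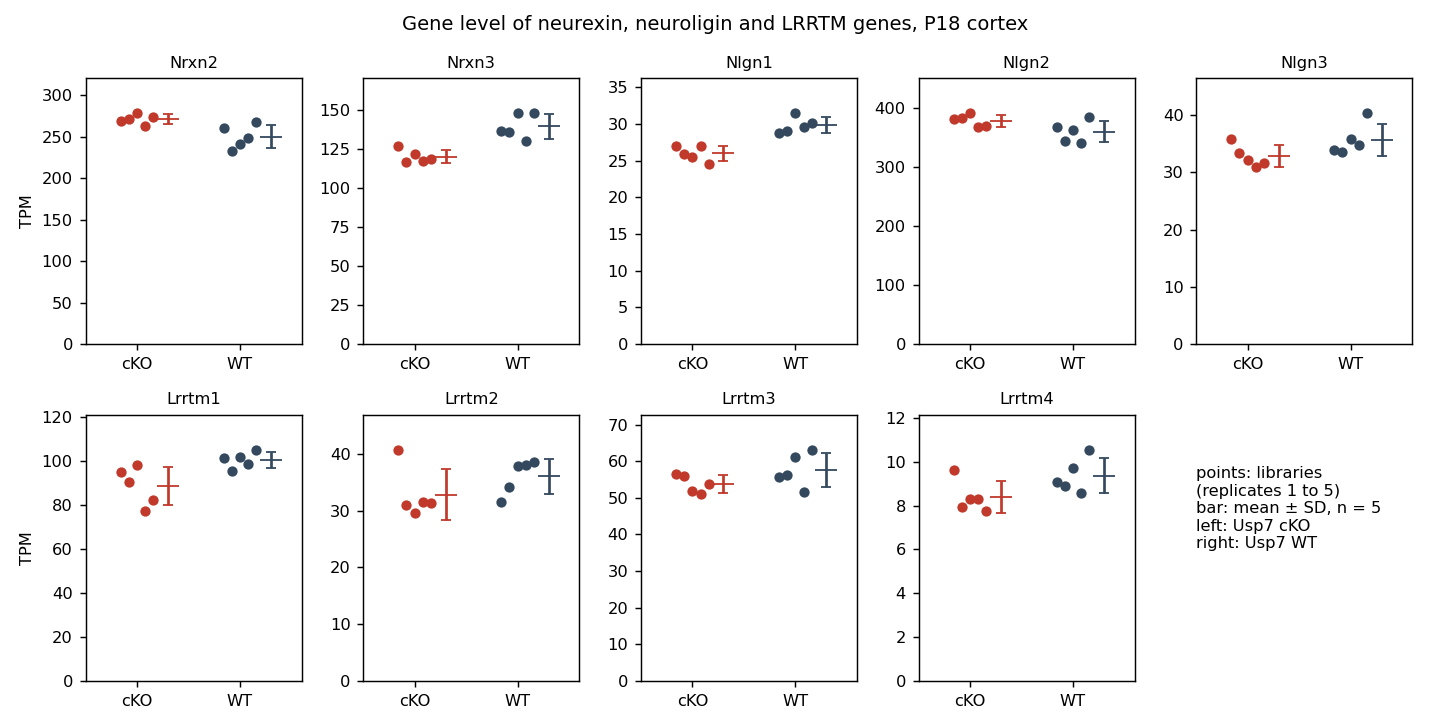
Gene level (TPM) of the 9 genes in each library, Usp7 cKO on the left and Usp7 WT on the right of each panel; points are libraries in replicate order and bars are mean ± SD (n = 5). The Usp7 cKO points of Nrxn3 and Nlgn1 lie below all Usp7 WT points, while the other 7 panels overlap.

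Nrxn3, a neurexin gene of 1612060 bases on chromosome 12, was measured at 127, 117, 122, 117 and 119 TPM in Usp7 cKO replicates 1 to 5, against 137, 136, 148, 130.1 and 148 TPM in Usp7 WT replicates 1 to 5. All 5 Usp7 cKO libraries lay below the lowest Usp7 WT library, a pattern that 4.58% of all genes tested showed. The means were 120.3 ± 4.21 TPM in Usp7 cKO and 139.9 ± 8.00 TPM in Usp7 WT (SD, n = 5 each), a log2 difference of -0.22 (SE 0.049, limma adjusted p = 0.016). The call held in each alternative that was run, with adjusted p between 6.2e-09 and 0.0477.

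Nrxn2, the other neurexin, had 269, 272, 279, 263 and 274 TPM in the Usp7 cKO replicates, against 260.0, 233, 242, 248 and 268 TPM in the Usp7 WT replicates. The groups overlapped by 1 Usp7 cKO library. The log2 difference of 0.12 (SE 0.0418) did not pass the threshold (limma adjusted p = 0.0908, 0.0539 to 0.453 over the alternatives). While its total level did not pass, its make-up did: Nrxn2 was the only gene of the 9 called for a change in exon usage.

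Nrxn2 lies on chromosome 19 of GRCm38 (chr19:6418731-6544169, plus strand), and its long and short forms start far apart and join at a shared exon. The first exon of the long form lies at chr19:6418731-6418972 and that of the short form at chr19:6497828-6498531. The last exon before the shared one therefore tells the forms apart in spliced reads. The 30 bases before the joint are shown for each form (capitals, the end of the exon held by that form) with the first 30 bases of the shared exon (lower case), read from the GENCODE transcripts of GRCm38.
Nrxn2 long form: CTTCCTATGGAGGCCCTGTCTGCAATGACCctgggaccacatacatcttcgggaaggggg
Nrxn2 short form: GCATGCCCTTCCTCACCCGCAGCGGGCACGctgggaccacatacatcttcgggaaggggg

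Usage of the short-form first exon was lower in Usp7 cKO. Exon usage here is the log2 change of a bin (a piece of an exon) relative to the other bins of its gene, so a rise in some bins goes with a fall in others. Over all genes 397 of 13954 tested were called, 2.85%, and Nrxn2 had a Simes adjusted p of 0.00201 (edgeR). In the 16 alternative fits Nrxn2 was called each time, and it was the only gene of the 9 called. Of its 53 tested bins 7 passed, beside 0.43% of all bins tested. How many single bins passed depended on a few libraries: 3 passed with both sex-discordant libraries left out, 3 without Usp7 cKO replicate 1, 2 without Usp7 cKO replicate 5 and 1 without Usp7 WT replicate 5.

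Of the 6 bins of the short-form first exon, 4 passed and all 6 had negative changes, with a median of -0.42. The bin with the smallest p of these, 51 bases at chr19:6497835-6497885, held 0.696, 1.09, 0.885, 1.003 and 0.824% of Nrxn2 bin counts in the Usp7 cKO replicates, against 1.13, 1.05, 1.03, 1.35 and 1.65% in the Usp7 WT replicates. In that bin 4 of 5 Usp7 cKO libraries lay below all Usp7 WT libraries (log2 usage -0.47, edgeR adjusted p = 0.000723, but 0.0712 without Usp7 WT replicate 5). The next bins downstream, chr19:6497886-6497938 and chr19:6497939-6498089, changed by -0.44 (edgeR adjusted p = 0.00177) and -0.41 (edgeR adjusted p = 0.00305). Both lost their call without Usp7 cKO replicate 1, Usp7 cKO replicate 5 or Usp7 WT replicate 5 (edgeR adjusted p between 0.0502 and 0.126). The other bin that passed, the 7 bases at the start of the exon (log2 usage -0.45, edgeR adjusted p = 0.00441), also lost its call without each of these libraries and with both sex-discordant libraries left out (adjusted p = 0.0825). A neighbouring piece just upstream of the exon, held by a noncoding transcript, was also lower (log2 usage -0.37, edgeR adjusted p = 0.0361), and all 5 Usp7 cKO libraries lay below all Usp7 WT libraries there. It was named after its values were seen and lost its call in 8 of the 16 alternatives, among them that without the sex-discordant pair (adjusted p = 0.309).

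The exons of the long form moved the other way, each by a small amount. All 25 tested bins that the long form alone holds had positive changes, from 0.07 to 0.20, and none passed on its own. The 12 tested bins of exons in both forms all had negative changes, from -0.20 to -0.02, and none passed. These counts describe bins of 1 gene that share reads and a common reference, so they are not independent of each other.

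**Figure D2:**
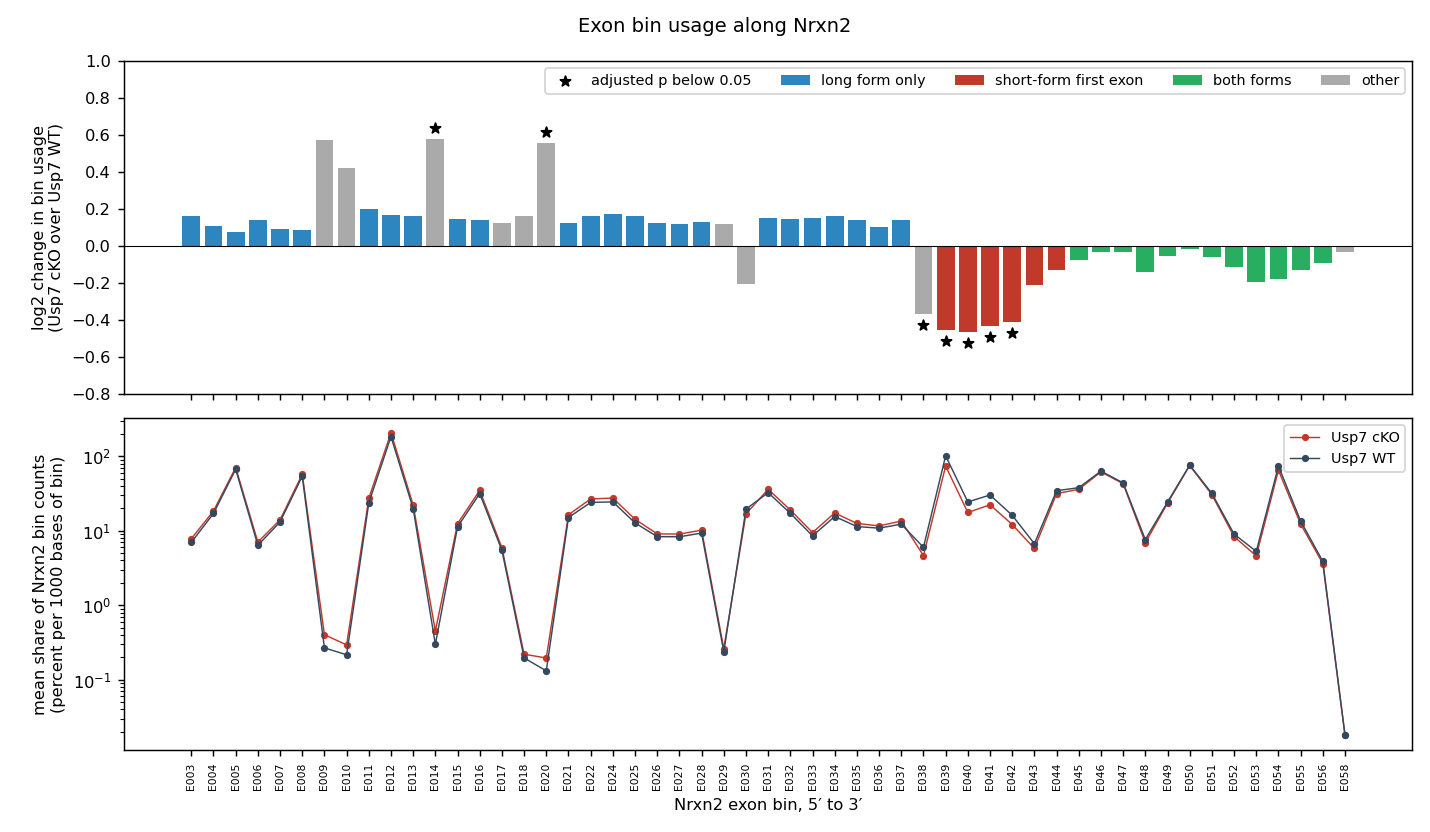
Upper panel: log2 change in usage of each tested Nrxn2 exon bin from 5′ to 3′ (Usp7 cKO over Usp7 WT), coloured by the form that holds it, with a star where the adjusted p is below 0.05. Lower panel: mean share of Nrxn2 bin counts per kilobase of bin on a log axis (short bins are inflated because reads that only touch them are counted). The long-form bins lie above 0 and the short-form bins below.

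In the authors' deposited table of exon usage, 6 Nrxn2 bins had an adjusted p below 0.05 and no bin of the other 8 genes did. There the 208-base bin of the long first exon had a log2 change of 0.11 (adjusted p = 0.00137), and a bin of the short first exon of 380 bases, chr19:6498090-6498469, had -0.27 (adjusted p = 0.00415). Another 3 long-form bins of the authors' deposited table were higher, with log2 changes between 0.07 and 0.12. The sixth bin was the noncoding piece just upstream of the short first exon (log2 change -0.42, adjusted p = 0.0338 in the authors' deposited table), the only bin of these genes below the threshold in both sources.

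Counted against library size rather than within the gene, the long form carried most of the difference. The exons of the long form alone (27 bins, 3868 bases) had a bin count scaled to library total (CPM) of 552, 573, 559, 569 and 612 in the Usp7 cKO replicates, against 501, 449, 445, 486 and 463 in the Usp7 WT replicates. All 5 Usp7 cKO libraries were higher than all Usp7 WT libraries (573 ± 23.5 and 469 ± 24.1, SD, n = 5 each; log2 0.29, exact two-sided permutation p = 0.00794, the smallest that 5 against 5 can give). Over the short-form first exon the values were 90.8, 115, 103, 110.0 and 97.0 CPM in Usp7 cKO, against 118, 103, 99.1, 127 and 131 in Usp7 WT. These groups overlapped (log2 -0.16, exact permutation p = 0.143), as did those over exons of both forms (501 ± 17.9 in Usp7 cKO and 475 ± 19.9 in Usp7 WT; log2 0.08, exact permutation p = 0.0556). The stretches were chosen after the bin values were seen, and reads that span several bins count in each.

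As a share of the 2 first exons per base, the short form made up 62.1, 67.0, 64.9, 65.8 and 61.3% in the Usp7 cKO replicates, against 70.5, 71.2, 69.9, 71.7 and 74.1% in the Usp7 WT replicates. Every Usp7 cKO library was below every Usp7 WT library (64.2 ± 2.45% and 71.5 ± 1.61%, SD, n = 5 each; exact permutation p = 0.00794). Adjusted over the 9 promoter and splice site shares tested, that p was 0.0714, which misses 0.05 although it rests on the smallest p the design allows. In spliced reads across the joint printed above (1437 to 2034 per library), the short form held 65.3 ± 2.83% in Usp7 cKO and 68.6 ± 3.58% in Usp7 WT, and the groups overlapped (exact permutation p = 0.159).

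**Figure D3:**
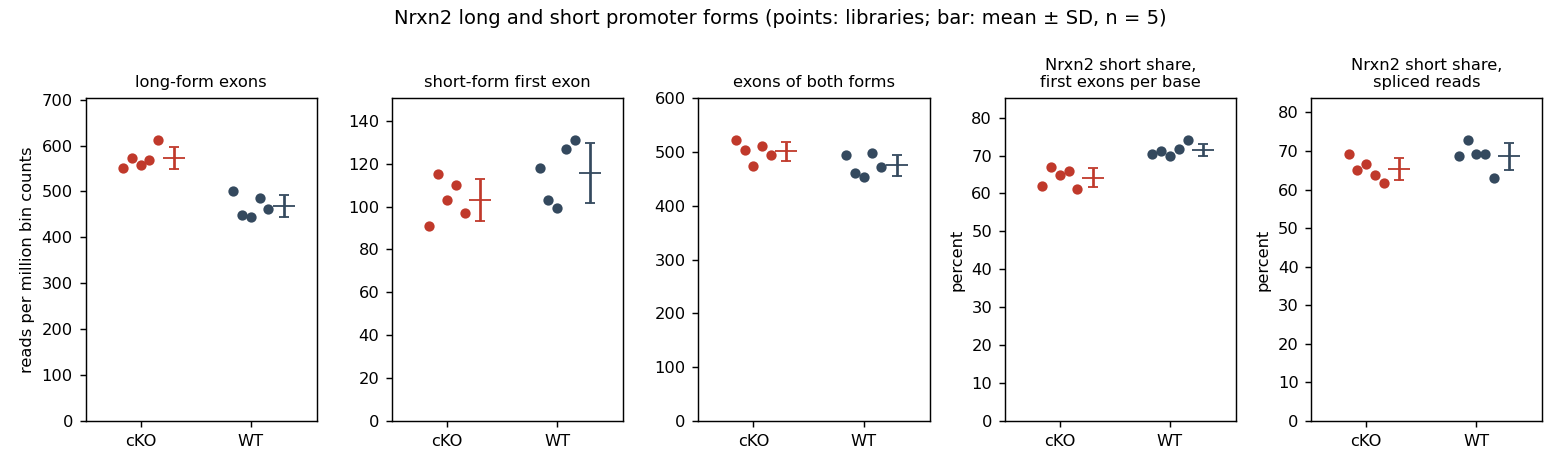
Nrxn2 by form in each library, Usp7 cKO left and Usp7 WT right: CPM over long-form exons, the short-form first exon and exons of both forms, then the short-form share (percent) by first exons per base and by spliced reads. Points are libraries and bars mean ± SD (n = 5); the groups separate over long-form exons and in the share by first exons, and overlap in the other panels.

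Some intron sequence of Nrxn2 was used more in Usp7 cKO. A piece of 2675 bases held by a retained-intron transcript, chr19:6464076-6466750, took 0.402, 0.566, 0.622, 0.429 and 0.609% of Nrxn2 bin counts in the Usp7 cKO replicates, against 0.408, 0.264, 0.284, 0.362 and 0.446% in the Usp7 WT replicates. It had the smallest p of all Nrxn2 bins (log2 usage 0.56, edgeR adjusted p = 0.000423, but 0.0746 with both sex-discordant libraries left out), although the groups overlapped. A second such piece, chr19:6454571-6454978, named after its values were seen, changed by 0.58 (edgeR adjusted p = 0.0406) and lost its call in 11 of the 16 alternatives (adjusted p = 0.195 without the sex-discordant pair). Both lie in the stretch that the long form alone transcribes, and their level was low, at 6.31 and 2.21 CPM in Usp7 cKO, against 3.84 and 1.33 in Usp7 WT.

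For Nrxn3 the 2 forms kept similar shares. The short form made up 10.4 ± 1.36% of the first exons per base in Usp7 cKO and 11.3 ± 1.02% in Usp7 WT (SD, n = 5 each; exact permutation p = 0.286, adjusted 0.429). The exon taken as the long first exon, chr12:88794504-88795893, directly follows an annotated intron, chr12:88723187-88794503, with 184.5 spliced reads on average. Reads thus also entered it from an upstream exon, so for Nrxn3 this exon is not only a first exon. In spliced reads its share was 17.1 ± 2.79% in Usp7 cKO and 17.1 ± 3.29% in Usp7 WT, so the sign of the difference turned. None of the 48 tested Nrxn3 bins passed, with a smallest adjusted p of 0.718 (edgeR). By first exons and by spliced reads, Nrxn2 thus leaned to its short form in both genotypes and Nrxn3 to its long form. Set against all long-form exons per base, a measure chosen after seeing the data, the Nrxn2 short form held 49.7 ± 2.55% in Usp7 cKO. In Usp7 WT it held 57.4 ± 2.42%, so the lean in Usp7 cKO depended on the measure.

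Splice site 4, the alternative exon that sets much of the binding choice of neurexins, is 90 bases long in both genes and lies at chr12:90199147-90199236 in Nrxn3. The Nrxn3 insert is shown in capitals between 12 bases of each neighbouring exon in lower case, because the reads below count its inclusion.
Nrxn3 SS4: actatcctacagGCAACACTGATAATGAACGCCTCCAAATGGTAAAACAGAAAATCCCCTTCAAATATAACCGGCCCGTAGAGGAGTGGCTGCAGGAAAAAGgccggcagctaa
Its length keeps the reading frame.

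Inclusion of SS4 did not pass in either gene. In Nrxn3 it stood at 38.2, 43.7, 41.4, 42.3 and 48.5% of spliced reads in the Usp7 cKO replicates, against 35.2, 32.4, 37.2, 41.9 and 42.2% in the Usp7 WT replicates, with 201.5 to 364 reads behind each value. The Usp7 cKO mean was higher, at 42.8 ± 3.77% against 37.8 ± 4.26% in Usp7 WT, but the groups overlapped (exact permutation p = 0.0714). By bin counts per base over the neighbouring exons, 62.6 ± 4.63% in Usp7 cKO stood beside 57.4 ± 6.62% in Usp7 WT (exact permutation p = 0.175, adjusted 0.386). In Nrxn2 the spliced-read inclusion was 18.3 ± 1.44% in Usp7 cKO and 19.4 ± 2.40% in Usp7 WT (exact permutation p = 0.452), and by bin counts 16.7 ± 1.24% in Usp7 cKO stood beside 18.1 ± 3.52% in Usp7 WT (exact permutation p = 0.587, adjusted 0.661).

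Of the 3 STAR-family RNA-binding proteins, which promote skipping of SS4 in mouse neurons, Khdrbs3 was lower in Usp7 cKO. Its level was 125, 125, 141, 106 and 124 TPM in the Usp7 cKO replicates, against 155, 155, 170.2, 143 and 167 TPM in the Usp7 WT replicates, with no overlap (log2 -0.35, SE 0.0703, limma adjusted p = 0.00886). Khdrbs2 (4.48 ± 0.761 TPM in Usp7 cKO and 5.40 ± 0.573 TPM in Usp7 WT, adjusted p = 0.201) and Khdrbs1 (48.1 ± 3.64 and 48.1 ± 4.12 TPM, adjusted p = 0.985) did not pass in limma. Whether the Khdrbs3 level and SS4 inclusion are linked was not tested.

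Over all intron clusters (sets of introns that share an end), 23 of 10441 were called, 0.22%, and none of the 23 clusters of these genes was among them (edgeR). In edgeR only 1 reached an unadjusted Simes p below the threshold, a Nrxn3 cluster near the 5′ end of the long form (0.0443, adjusted p = 1). In it, an annotated intron, chr12:88850309-89187021, held 20.5 ± 1.11% of the cluster's reads in Usp7 cKO and 17.4 ± 1.03% in Usp7 WT, with every Usp7 cKO library above every Usp7 WT library. An unannotated intron that ends at the same place but starts within it, chr12:88853113-89187021, held 12.8 ± 1.21% in Usp7 cKO and 15.7 ± 1.01% in Usp7 WT. These shares were picked after their values were seen and are a description. Reads of the unannotated intron mark the end of a 12-base piece, chr12:88853101-88853112, whose inclusion came to 24.8 ± 2.90% in Usp7 cKO and 33.5 ± 2.26% in Usp7 WT, with every Usp7 cKO library below every Usp7 WT library. That figure is hard to read as inclusion, because the intron on its other side averaged 21.3 reads against 241 for this one. Spliced reads also marked an unannotated Nrxn3 exon of 24 bases, chr12:89191153-89191176. It was included in 5.94 ± 1.09% of reads in Usp7 cKO and 7.53 ± 1.41% in Usp7 WT (SD, n = 5 each; 379.5 to 535 reads), and the groups overlapped.

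Nlgn1, the neuroligin of excitatory synapses, was the other gene with a lower level. It had 27.01, 25.9, 25.5, 27.05 and 24.5 TPM in the Usp7 cKO replicates, against 28.8, 29.0, 31.5, 29.6 and 30.2 TPM in the Usp7 WT replicates. No Usp7 cKO library reached the lowest Usp7 WT library (26.0 ± 1.07 and 29.8 ± 1.07 TPM, SD, n = 5 each; log2 -0.19, SE 0.0458, limma adjusted p = 0.0189). The limma call did not survive leaving out the 2 sex-discordant libraries (log2 -0.20, adjusted p = 0.0895; 1 of the 9 then called, beside 3.15% of all genes lower), leaving out Usp7 cKO replicate 5 (adjusted p = 0.0595; 1 of the 9, beside 3.26%) or using the Xist level as covariate (adjusted p = 0.0624).

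Nlgn2, the neuroligin of inhibitory synapses, was the most abundant of the 9 genes. Its level was 381, 382, 391, 367 and 368 TPM in the Usp7 cKO replicates, against 367, 343, 362, 340.0 and 384 TPM in the Usp7 WT replicates, and the groups overlapped (log2 0.07, SE 0.0407, limma adjusted p = 0.274). Nlgn3, an X-linked neuroligin, had 35.9, 33.4, 32.2, 31.0 and 31.6 TPM in Usp7 cKO, against 33.8, 33.5, 35.8, 34.8 and 40.3 TPM in Usp7 WT. It did not pass either (log2 -0.12, SE 0.0661, limma adjusted p = 0.28), but it was called lower with rescaled TPM (adjusted p = 0.0387), edgeR (0.0481) and DESeq2 (0.0367) on summed bin counts. The bins of Nlgn3 in the table cover its ends but not its middle coding exons, which overlap the annotated readthrough gene Gm21986, so its summed bin counts rest on part of the gene.

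Neuroligins carry alternative inserts at site A in the extracellular domain, and Nlgn3 has 2 alternative exons of 60 bases there, called A1 and A2. The Nlgn1 exon of that length that the annotation holds resembles A2. Spliced reads marked a further Nlgn1 exon of 60 bases, chr3:26132744-26132803, which no spliced transcript of the annotation contains. Its bases could be read from a retained-intron transcript and are shown beside the annotated inserts (capitals, 12 bases of neighbouring exon in lower case where shown).
Nlgn1 site A: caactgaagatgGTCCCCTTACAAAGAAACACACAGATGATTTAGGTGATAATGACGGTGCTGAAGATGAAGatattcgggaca
Nlgn3 site A2: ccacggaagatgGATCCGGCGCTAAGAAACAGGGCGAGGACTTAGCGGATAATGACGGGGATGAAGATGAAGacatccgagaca
Nlgn1 unannotated exon: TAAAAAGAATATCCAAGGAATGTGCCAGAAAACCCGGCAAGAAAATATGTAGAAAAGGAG
Nlgn3 site A1: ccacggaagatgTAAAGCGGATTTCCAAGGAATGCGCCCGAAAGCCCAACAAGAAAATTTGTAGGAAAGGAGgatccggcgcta
The unannotated Nlgn1 exon matched Nlgn3 A1 at 49 of 60 bases and A2 at 19, whereas the annotated Nlgn1 exon matched A2 at 43 and A1 at 16.

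The A2-like insert also differed in use between the genes. In the Nlgn3 percentages, reads that join the preceding exon directly to A2 count as skipping of A1. Reads that join A1 to A2 count as inclusion of A2, and no intron joined A1 directly to the exon after A2. The Nlgn1 percentages leave out reads with the other insert. In Nlgn1 the annotated exon was included in 7.49 ± 2.07% of spliced reads in Usp7 cKO and 8.601 ± 2.50% in Usp7 WT, and the unannotated one in 6.26 ± 1.52% in Usp7 cKO and 9.17 ± 1.74% in Usp7 WT (SD, n = 5 each). For the unannotated exon this is a description that rests on 170 to 254 reads per library, and the groups overlapped. In Nlgn3, A2 was included in 84.7 ± 3.44% in Usp7 cKO and 81.2 ± 1.92% in Usp7 WT (exact permutation p = 0.0714, adjusted 0.321), and A1 in 5.43 ± 1.25% in Usp7 cKO and 6.99 ± 1.84% in Usp7 WT (exact permutation p = 0.151, adjusted 0.386). The A2-like exon was thus in most Nlgn3 reads and in few Nlgn1 reads in both genotypes.

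Nlgn2 has a 51-base insert at site A, included in 85.6 ± 1.92% of spliced reads in Usp7 cKO and 83.8 ± 1.77% in Usp7 WT (exact permutation p = 0.175). Site B of Nlgn1, which lowers binding to alpha neurexins, is a 27-base extension of an exon at chr3:25439865-25439891. It was included in 89.3 ± 4.26% in Usp7 cKO and 92.8 ± 6.89% in Usp7 WT, with 53 to 113 reads per library (exact permutation p = 0.349). Tested by bin counts per base over the neighbouring exons, Nlgn1 site A, Nlgn2 site A and Nlgn1 site B did not pass either (exact permutation, adjusted p = 0.51, 0.833 and 0.386). None of the 9 promoter and splice site shares passed after adjustment. No tested bin of Nlgn1 (14), Nlgn2 (13) or Nlgn3 (6) passed for usage in edgeR. The smallest unadjusted p among them, 0.0208, was that of the Nlgn1 retained-intron bin that contains the unannotated exon (log2 usage -0.23).

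**Figure D4:**
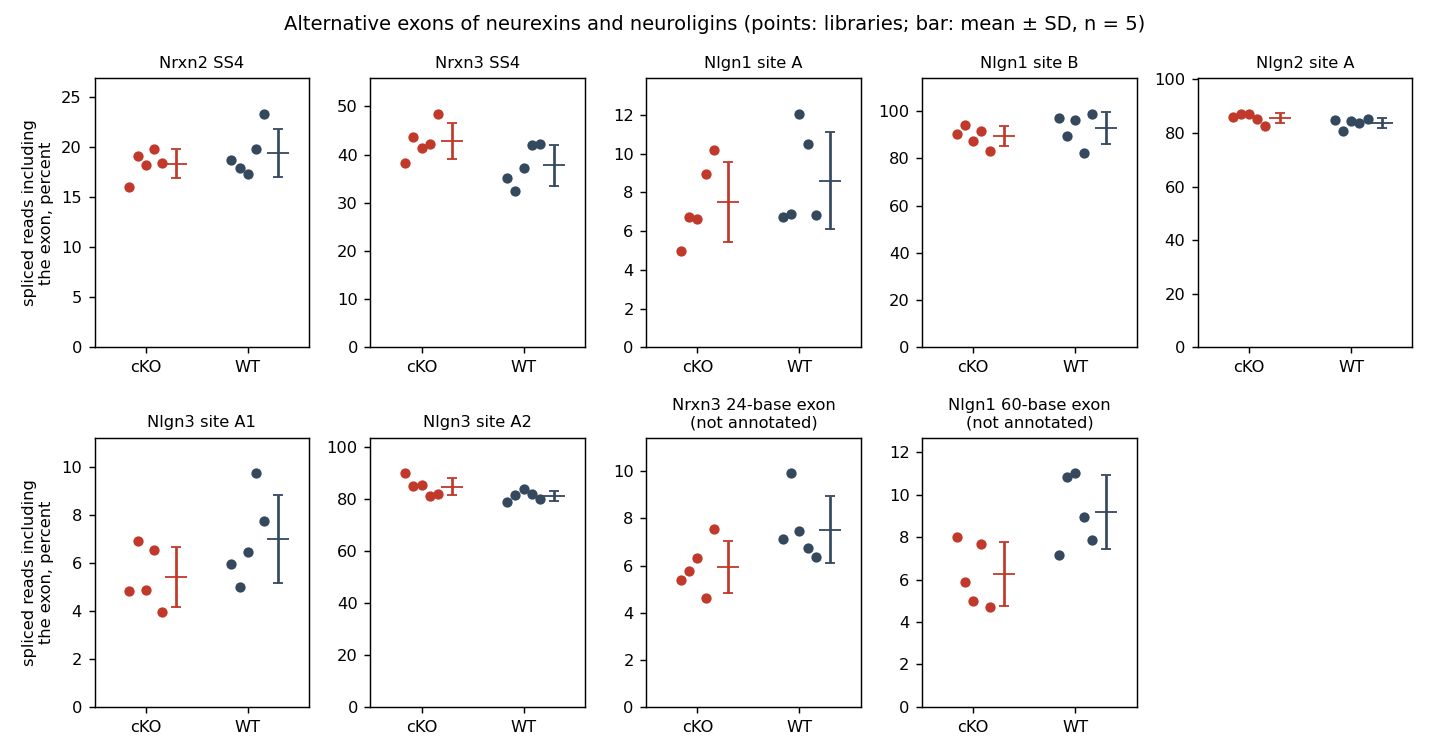
Percent of spliced reads that include each alternative exon in each library, Usp7 cKO left and Usp7 WT right of each panel; points are libraries and bars mean ± SD (n = 5). The groups overlap in every panel, and SS4 inclusion is higher in Nrxn3 than in Nrxn2 in both genotypes.

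The 4 LRRTM genes all had negative log2 changes, and none passed. Lrrtm1 had 94.8, 90.2, 97.8, 77.1 and 82.4 TPM in the Usp7 cKO replicates, against 101, 95.3, 101, 98.7 and 105 TPM in the Usp7 WT replicates. All but 1 Usp7 cKO library were below all Usp7 WT libraries (log2 -0.19, SE 0.0671, limma adjusted p = 0.0988). It was called lower with rescaled TPM (adjusted p = 0.0123), with the Xist level as covariate (0.0333), and by edgeR (0.00299) and DESeq2 (0.000407) on summed bin counts.

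Lrrtm2 ranged from 29.7 to 40.7 TPM in Usp7 cKO and from 31.5 to 38.6 TPM in Usp7 WT (log2 -0.14, limma adjusted p = 0.289). Lrrtm3 ranged from 51.1 to 56.6 TPM in Usp7 cKO and from 51.7 to 63.1 TPM in Usp7 WT (log2 -0.09, limma adjusted p = 0.361). Lrrtm4, the least abundant, ranged from 7.76 to 9.64 TPM in Usp7 cKO and from 8.57 to 10.5 TPM in Usp7 WT (log2 -0.15, limma adjusted p = 0.3), and was called lower with rescaled TPM alone (adjusted p = 0.0497). The groups overlapped in each of these 3 genes. None of their bins passed for usage.

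Lrrtm1, Lrrtm2 and Lrrtm3 lie within introns of the alpha-catenin genes Ctnna2, Ctnna1 and Ctnna3, on the opposite strand. The strand used for counting is not given in the sources used here, so reads of host and guest cannot be told apart. Ctnna2, a cell adhesion linker to actin, was lower too (89.3 ± 3.21 TPM in Usp7 cKO and 101.9 ± 6.61 TPM in Usp7 WT; log2 -0.19, limma adjusted p = 0.043). Ctnna3 (log2 -0.28, adjusted p = 0.225) and Ctnna1 (log2 0.05, adjusted p = 0.777) did not pass in limma. Part of the Lrrtm4 coding sequence overlaps the antisense gene Gm4409, and those bins held almost no counts, so the Lrrtm4 value rests on the rest of the gene.

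Scaling mattered for how many of the 9 were called. After TPM was rescaled with size factors (median of ratios), which moved the median log2 change of all genes to 0.01, 5 of the 9 were lower (Nrxn3, Nlgn1, Nlgn3, Lrrtm1 and Lrrtm4), beside 10.9% of all genes. On summed bin counts, 4 of the 9 were lower by edgeR (beside 13.9% of 23012 genes) and 4 by DESeq2 (beside 14.9%), namely Nrxn3, Nlgn1, Nlgn3 and Lrrtm1. None of the 9 was called higher in any of these fits, and the sign of no gene changed.

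Of 15 neurexin ligands and co-ligands, 3 were higher and 3 lower, with a median log2 change of 0.06. Over all genes tested, 9.22% were called higher and 4.67% lower. Cbln1, a secreted bridge between neurexins and glutamate delta receptors, was at 36.3, 35.9, 35.8, 33.1 and 37.6 TPM in the Usp7 cKO replicates, against 15.96, 17.4, 18.0, 17.9 and 16.5 TPM in the Usp7 WT replicates (log2 1.04, SE 0.0579, limma adjusted p = 3.59e-06). Its relative Cbln2 went the other way, at 19.9, 20.5, 19.7, 20.5 and 15.7 TPM in Usp7 cKO, against 39.1, 37.5, 41.5, 34.9 and 41.5 TPM in Usp7 WT (log2 -0.999, SE 0.0851, limma adjusted p = 5.31e-05). C1ql2, a secreted C1q-like ligand of SS5-containing neurexin 3 in mouse, averaged 14.5 ± 3.11 TPM in Usp7 cKO and 4.72 ± 1.26 TPM in Usp7 WT (log2 1.54, limma adjusted p = 0.000737). In each of these 3 genes the groups were far apart.

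Of 8 neuroligin scaffolds and inhibitors, 1 was higher and 2 were lower (median log2 change -0.11), beside 9.22% higher and 4.67% lower over all genes. Dlg4, which encodes the scaffold PSD-95 that binds the tail of neuroligins, averaged 286 ± 15.3 TPM in Usp7 cKO and 355 ± 19.8 TPM in Usp7 WT (log2 -0.31, limma adjusted p = 0.00323). Magi2, another scaffold, averaged 61.0 ± 4.90 TPM in Usp7 cKO and 72.3 ± 5.25 TPM in Usp7 WT (log2 -0.25, limma adjusted p = 0.0341). Mdga1, whose protein blocks neuroligin 2 from neurexins, rose to 27.6 ± 2.41 TPM in Usp7 cKO, against 20.5 ± 1.39 TPM in Usp7 WT (log2 0.42, limma adjusted p = 0.00518). Of 6 intracellular partners of neurexins none passed in limma, and the nearest was Apba2 (log2 -0.20, adjusted p = 0.0508), followed by Lin7a (log2 -0.13, adjusted p = 0.226) and Apba1 (log2 0.04, adjusted p = 0.59).

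Neither of the 2 genes listed as heparan sulfate-dependent partners of LRRTM4 passed in limma, Ptprs (log2 0.08, adjusted p = 0.337) and Gpc4 (log2 0.02, adjusted p = 0.894). Among 38 other synaptic adhesion organisers 4 were higher and 10 lower (median log2 change -0.10), beside 9.22% higher and 4.67% lower over all genes. The 3 with the smallest p were Ptprf, a receptor phosphatase (log2 0.38, limma adjusted p = 0.00013), Cadm2, an immunoglobulin adhesion protein (log2 -0.45, limma adjusted p = 0.000423), and Clstn1, a calsyntenin (log2 -0.32, limma adjusted p = 0.00151). Of 2 proteases that cut these proteins from the membrane, Adam10 was lower (43.8 ± 1.68 TPM in Usp7 cKO and 50.5 ± 3.49 TPM in Usp7 WT; log2 -0.20, limma adjusted p = 0.0435) and Mmp9 did not pass (log2 0.46, adjusted p = 0.0888 in limma).

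**Figure D5:**
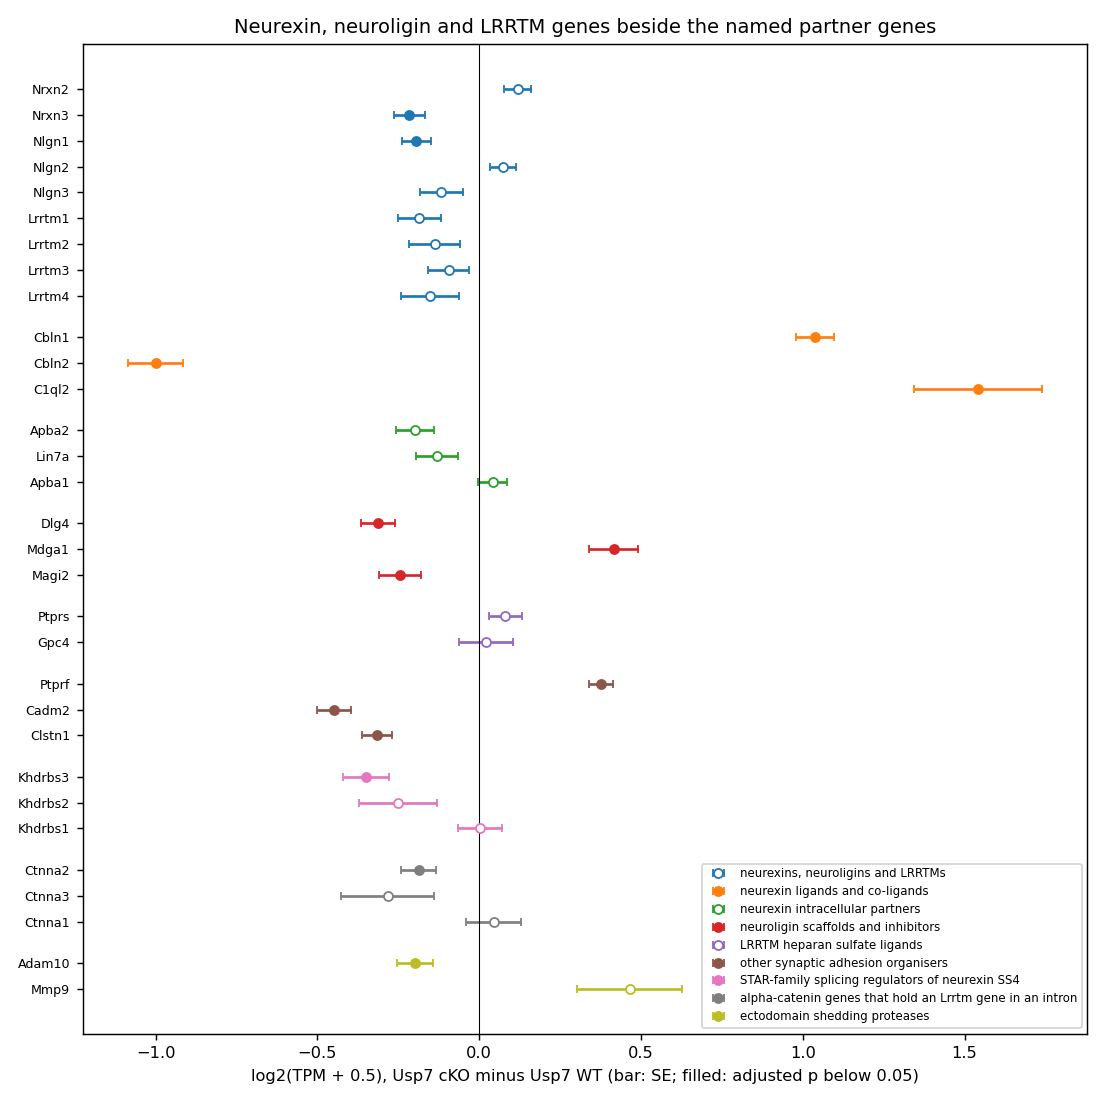
Log2 change in level (Usp7 cKO minus Usp7 WT, on log2(TPM + 0.5)) of the 9 genes and of up to 3 genes per partner list; bars are SE and filled points have an adjusted p below 0.05. The changes of the 9 genes lie between -0.22 and 0.12, while Cbln2 and Cbln1 stand at -0.999 and 1.04.

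Profiles over the 10 libraries were compared by the mean absolute difference of standardised log2 levels, in which a value of 0 means identical shape. Within the 9, Nrxn3 was most like Nlgn1 (0.36) and Nrxn2 most like Nlgn2 (0.41). Among 10989 protein-coding genes averaging 5 TPM or more, the closest to Nrxn2 was Fam184a (0.0972), to Nrxn3 Stxbp5 (0.113) and to Nlgn1 Tspyl1 (0.138). For the others the closest were Exosc2 (Nlgn2), Zfp871 (Nlgn3), Sphk2 (Lrrtm1), Tmem167 (Lrrtm2), Cmas (Lrrtm3) and Gpm6b (Lrrtm4), with differences between 0.162 and 0.232. The median over all candidates was 0.82 to 1.13, and a likeness of this kind says nothing of shared control.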

How the data were processed

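Total RNA of mouse cerebral cortex was depleted of ribosomal RNA and converted to libraries with random hexamer priming, as the labels' protocols say. Gene levels are the authors' deposited TPM values. The bin table holds raw read counts of exon bins, with the authors' log2 changes and p-values, and the intron table holds counts of spliced reads, all as deposited. The submitters' processing notes name STAR 2.7.9a, SAMtools 1.10, featureCounts and GRCm38. The sources used here give neither strand nor gene lengths. All intron counts of Usp7 WT replicate 1 were even, against 52.8 to 55.0% in the other libraries, so they were halved (8358248 to 4179124). In the TPM table, 287 repeated lines were used once.

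Gene levels were tested with limma 3.58.1 (R 4.3.3; trend, robust) on log2(TPM + 0.5) of genes averaging 0.5 TPM or more, which understates changes of low genes. For exon and intron usage, edgeR 4.0.16 (diffSpliceDGE after glmQLFit, TMM) was run on bins averaging 10 counts or more and introns averaging 5 or more, with Simes p per gene or cluster. The labelled sex was the covariate, Benjamini-Hochberg adjustment ran over all features, and the threshold was 0.05. Shares were compared by exact two-sided permutation of 5 against 5. The fits were tested on simulated data. DESeq2 1.42.0 was an alternative. Positions and transcripts are GENCODE annotation of GRCm38. Each library is from a separate animal, so p-values measure the spread between animals. Counting error is part of that spread.

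The genes and lists were chosen with earlier results of these data known. Beside the 9 genes, the text names Usp7, the closest profile to each, lists of 3 or fewer genes whole, and up to 3 genes with the smallest p of each longer list. Trp53 (12.6 ± 1.96 TPM in Usp7 cKO and 12.5 ± 1.42 TPM in Usp7 WT) and Neurod6 (24.2 ± 2.45 and 52.1 ± 1.97 TPM), the gene whose promoter drives the Cre, were the other checks. For Neurod6 every Usp7 cKO library lay below every Usp7 WT library (log2 -1.10, limma adjusted p = 1.11e-05). Whether this reflects the Cre allele was not tested. One sequence is not reported here.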

Additional observations from a re-analysis of the deposited data

Results flagged for a closer look

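In groups of 5 libraries, 4 values stood apart by Dixon's test among 44 groups examined, and chance alone flags about 1 group in 20. Lrrtm2 was 40.7 TPM in Usp7 cKO replicate 1, with the next library of that group at 31.5 TPM. Lrrtm4 was 9.64 TPM in the same library, with the next at 8.29 TPM. The sex labelled for that library is one of the 2 that went against Xist and Ddx3y. The short-form share of Nrxn3 was 7.95% of the first exons per base in Usp7 cKO replicate 3, with the next library at 10.7%, and 1.93% of all Nrxn3 bin counts in that library, with the next at 2.41%.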

How the results depend on the processing

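The labels speak of matched pairs without naming them, but sample titles end in a number shared between genotypes (1, 2 or 3), whose meaning is not given. Deviations from the group means correlated at 0.0781, 0.147 and 0.0987 between genotypes within these numbers, and all 10 libraries correlated best with their own number. The labelled sexes within each number also matched between genotypes, but the sexes by Xist and Ddx3y did not match within numbers 1 and 3. The numbers may thus mark a grouping shared between genotypes, which the main tests did not include. With the number as a replicate block, chosen after seeing the data, 2 genes were called for level, 1 for exon usage and 0 intron clusters. Nrxn2 bins called fell to 5, and the Nrxn2 level had a limma adjusted p of 0.0899. The short-form share of Nrxn2 had an adjusted exact permutation p of 0.25 within numbers. That value rests on the smallest unadjusted p that regrouping within numbers allows, so this setting could not make the share pass on its own. Of the 9 genes, 2 were called for level, and that count became 5 with rescaled TPM, 4 by edgeR and 4 by DESeq2 on summed bin counts, 1 without both libraries of discordant sex, and between 1 and 2 when single libraries were left out (1 without Usp7 cKO replicate 5). The other alternatives kept a count of 2, which with the Xist level as covariate was made up of Nrxn3 and Lrrtm1. The counts for exon usage (1) and intron clusters (0) kept their values in each alternative. The short-form share of Nrxn2 kept its direction throughout, with differences of -7.97 to -6.55 percentage points when single libraries were left out, -7.74 against all long-form exons (an alternative chosen after seeing the data) and -3.31 in spliced reads. Its adjusted exact permutation p was 0.257 without both libraries of discordant sex. This too rests on the smallest unadjusted p that the remaining libraries allow, so the value does not show a weaker difference. Uncalled differences that changed sign were the short-form share of Nrxn3 in spliced reads (0.0335 percentage points), Nlgn2 site A as a share of all bin counts (-0.0349) and, with single libraries left out, Nlgn2 site A (-0.323 without Usp7 WT replicate 3, range -2.55 without Usp7 cKO replicate 2 to 4.05) and Nrxn2 SS4 (range -1.93 to 0.168, positive without Usp7 WT replicate 5). Over all genes, 2544 were called higher and 1288 lower, against 2645 and 3006 with rescaled TPM, 3228 and 3201 by edgeR, 3170 and 3429 by DESeq2, and 1313 and 868 without both libraries of discordant sex. The causes were not tested. Few spliced reads limit the splice site shares of Nlgn1 and Nrxn3.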
